A study of Mus musculus with 4 samples.

Results

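The mRNAs of 10 subunits of the CCR4-NOT complex (Cnot1, Cnot2, Cnot3, Cnot4, Cnot6, Cnot6l, Cnot7, Cnot8, Cnot10 and Cnot11) were followed by gene name through RNA immunoprecipitates, out of 53379 genes in the deposited table. Their transcripts were compared between immunoprecipitates made with an antibody against Cpeb4, an RNA-binding protein, and immunoprecipitates made with control IgG. The starting material was the ventricular-subventricular zone (V-SVZ), a neurogenic layer that lines the lateral ventricles, taken from CD1 wild-type mice aged P7/P8, that is postnatal day 7 or 8. The experiment was done 2 times with 1 library per antibody each time, so there were 4 libraries, 2 with Cpeb4 and 2 with IgG. All 4 came from the same genotype, strain and age, no input RNA was among them, and the labels do not say whether the experiments used separate or pooled animals. P-values therefore measure the spread between these libraries, estimated largely over all genes together, and that spread may be technical. Lysates were of whole tissue, so how many cells held an mRNA and how much each cell held cannot be told apart. Without input RNA, recovery cannot be set against the level in the lysate.

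CCR4-NOT is the main cytoplasmic deadenylase of eukaryotes, which shortens the poly(A) tails of mRNAs and so starts their silencing and decay. Its nuclease activity lies in a Caf1-type subunit, Cnot7 or Cnot8, and a Ccr4-type subunit, Cnot6 or Cnot6l, where each pair of paralogs supplies alternative versions of the same position. The other subunits build the frame that holds the nucleases and docks the proteins that recruit the complex to chosen mRNAs. CPEB proteins bind cytoplasmic polyadenylation elements in mRNAs and act on the length of the same poly(A) tails. The values describe recovery of subunit mRNAs with the Cpeb4 antibody relative to control IgG, and not how much of any subunit protein was present.

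The libraries held 35037171 and 24483742 reads on genes for Cpeb4 and 24094241 and 22486721 for IgG. Levels are FPKM, fragments per kilobase of gene after the authors' correction for depth, so they can be set side by side between genes. A fold change is the difference in log2(FPKM + 1), Cpeb4 minus IgG, and was tested with limma over 15745 genes at a Benjamini-Hochberg adjusted p under 0.05. V-SVZ markers were present in every library, and their calls stand beside 38.8% of all tested genes called higher and 11.6% called lower. The 5 neuroblast markers summed to 409.6 to 411 FPKM with Cpeb4 and 292 to 296 FPKM with IgG, with 3 called higher, and the 5 markers of neural stem and radial glia cells to 656 to 682 FPKM with Cpeb4 and 377 to 389 FPKM with IgG, with 3 higher and 1 lower. The 3 transit amplifying markers summed to 30.6 to 33.3 FPKM with Cpeb4 and 22.3 to 23.2 FPKM with IgG, with 2 higher and 1 lower, and the 4 oligodendrocyte markers, all higher, to 307 to 349 FPKM with Cpeb4 and 221 to 229 FPKM with IgG. The 3 ependymal markers summed to 38.3 to 45.2 FPKM with Cpeb4 and 53.3 to 54.8 FPKM with IgG, and the 3 microglial markers to 49.8 to 58.3 FPKM with Cpeb4 and 67.1 to 73.4 FPKM with IgG, with 2 lower in each list. The 2 erythroid markers, both lower, summed to 68.7 to 86.8 FPKM with Cpeb4 and 111 to 122 FPKM with IgG. The 3 endothelial markers, 1 of them lower, summed to 22.1 to 29.4 FPKM with Cpeb4 and 28.1 to 29.9 FPKM with IgG. For the choroid plexus, Ttr was not called and Kl was too low to test, and they summed to 62.3 to 68.0 FPKM with Cpeb4 and 52.9 to 57.4 FPKM with IgG. Under all 5 scalings used below, 2 neuroblast markers and 3 neural stem and radial glia markers were higher, beside 17.3% of all tested genes. None of the transit amplifying or oligodendrocyte markers was, so their higher calls depended on the scaling. No marker was at 0 in any library. Their part in the results for the subunits was not tested.

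All 10 subunit mRNAs passed the filter on low values. With Cpeb4, 8 of them were higher, none was lower and 2 were not called, against 38.8% of all tested genes called higher and 11.6% called lower by limma. The change reached 2-fold for 3 of the 8, which were Cnot7, Cnot6l and Cnot6, against 10.8% of tested genes. No subunit was lower at an unadjusted p under 0.05 either, but limma-voom on reads called Cnot3 lower (log2 fold change -0.32, adjusted p = 0.0431). The median log2 fold change of the 10 subunits was 0.81, and that of all tested genes was 0.19. The ranges of the 2 antibodies did not overlap for any of the 10, and this was also the case for 75.9% of tested genes. The authors' deposited table likewise called 8 of the 10 higher and none lower at an adjusted p under 0.05, against 21.7% of its 22709 genes with an adjusted p.

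**Figure D1:**
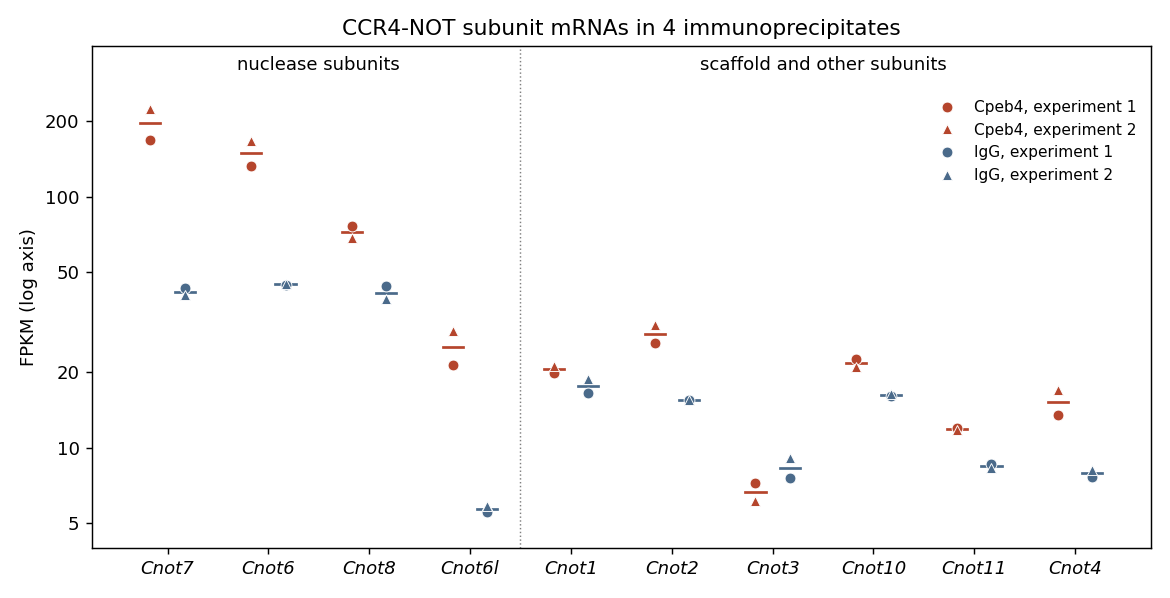
FPKM of each CCR4-NOT subunit mRNA on a log axis in the 4 libraries, Cpeb4 left of IgG for each gene, with circles for experiment 1, triangles for experiment 2 and a line at the mean of each pair. Cnot7 and Cnot6 stand at 133 FPKM or more in both Cpeb4 libraries and at 45.0 FPKM or less in both IgG libraries, while Cnot3 alone lies lower with Cpeb4.

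The Caf1-type nucleases, which also bridge the Ccr4-type nucleases to the scaffold, differed from each other. Cnot7 (chromosome 8: 40492538 to 40515847, GRCm38) had 169 and 224 FPKM in the Cpeb4 libraries of experiments 1 and 2, against 43.3 and 40.6 FPKM in their IgG counterparts. Both Cpeb4 libraries were far above both IgG libraries, the higher one in experiment 2. The mean was 197 ± 38.5 FPKM with Cpeb4 and 42.0 ± 1.92 with IgG (SD, n = 2 each). Its log2 fold change was 2.19 (standard error 0.14, adjusted p = 4.4e-08 by limma), or 4.56-fold on the FPKM + 1 scale, which placed it at rank 15 of 15745 tested genes. These levels rested on 20217 and 17278 reads with Cpeb4 and 4891 and 4284 with IgG. The span of Cnot7 overlaps that of Vps37a by 4106 bases, and without strand in the cDNA kit reads in that overlap cannot be assigned with certainty. Vps37a itself was at 25.5 and 33.8 FPKM with Cpeb4 and 14.8 and 13.7 FPKM with IgG.

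Cnot8 (chromosome 11: 58092794 to 58118597), the paralog of Cnot7, had 76.5 and 68.8 FPKM in the Cpeb4 libraries and 44.0 and 39.1 FPKM in the IgG libraries. The groups did not overlap, but the gap was much narrower than for Cnot7. Its log2 fold change was 0.79 (standard error 0.12, adjusted p = 6.22e-05 by limma), at rank 2631 among tested genes. When libraries were scaled to their read totals the call of Cnot8 was lost, at a log2 fold change of 0.28 (limma adjusted p = 0.0789). The ratio of Cnot7 to Cnot8 FPKM, which no scaling of libraries can change, was 2.21 and 3.25 with Cpeb4 and 0.98 and 1.04 with IgG. The paralogs were thus at near-equal levels in the IgG libraries, and Cnot7 was the more abundant in each Cpeb4 library.

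The Ccr4-type nucleases rose together. Cnot6 (chromosome 11: 49671497 to 49713401) had 133 and 167 FPKM with Cpeb4, against 44.7 and 45.0 FPKM with IgG. Its log2 fold change was 1.71 (standard error 0.13, adjusted p = 9.17e-08 by limma), at rank 194 of the tested genes. Cnot6l (chromosome 5: 96070333 to 96164198), its paralog, was the least abundant subunit mRNA in the IgG libraries and not in the Cpeb4 libraries. It had 21.4 and 29.1 FPKM with Cpeb4, against 5.53 and 5.86 FPKM with IgG, from 5615 and 4955 reads and from 1374 and 1361 reads. The log2 fold change of Cnot6l was 1.96 (standard error 0.13, adjusted p = 4.64e-08 by limma), at rank 58. Cnot6 remained the more abundant of this pair in every library, with a Cnot6 to Cnot6l ratio of 6.21 and 5.72 with Cpeb4 and 8.09 and 7.68 with IgG.

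Cnot1 (chromosome 8: 95718931 to 95808113) encodes the large scaffold on which the other subunits assemble. It had 19.8 and 21.2 FPKM with Cpeb4 and 16.5 and 18.7 FPKM with IgG, so the groups lay close to each other. With the authors' scaling its log2 fold change was 0.21 and was not called (standard error 0.12, adjusted p = 0.159 by limma), and under the other 4 scalings it lay between -0.28 and -0.046, also not called. Its span overlaps that of Setd6 by 2577 bases, and Setd6 was at 13.5 and 12.2 FPKM with Cpeb4 and 11.9 and 9.48 FPKM with IgG. Relative to Cnot1 in the same library, Cnot7 was 8.54 and 10.5 times as abundant with Cpeb4 and 2.63 and 2.17 times with IgG. The corresponding ratio of Cnot6l to Cnot1 was 1.08 and 1.37 with Cpeb4 and 0.34 and 0.31 with IgG.

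Cnot2 and Cnot3, which form the NOT module with the end of Cnot1, went apart. Cnot2 (chromosome 10: 116485160 to 116581900) had 26.1 and 30.9 FPKM with Cpeb4 and 15.5 and 15.6 FPKM with IgG. Its log2 fold change was 0.83 (standard error 0.12, adjusted p = 3.84e-05 by limma), close to that of the nuclease gene Cnot8. Cnot3 (chromosome 7: 3645247 to 3661109) had 7.23 and 6.14 FPKM with Cpeb4 and 7.60 and 9.07 FPKM with IgG. It had the only negative value of the 10, a log2 fold change of -0.28 that was not called (standard error 0.14, adjusted p = 0.102 by limma), with -0.063 in experiment 1 and -0.50 in experiment 2. With any of the other 4 scalings Cnot3 passed the test as lower, by log2 values between -0.73 and -0.52 (limma adjusted p between 1.68e-06 and 0.00474). Without Cpeb4 replicate 1 it was also called lower, at -0.38 (limma adjusted p = 0.0179). The span of Cnot3 overlaps that of Leng1 by 1003 bases, where reads without strand cannot be assigned with certainty. Leng1 was at 1.45 and 1.31 FPKM with Cpeb4 and 2.33 and 2.12 FPKM with IgG. The ratio of Cnot2 to Cnot3 FPKM was 3.61 and 5.03 with Cpeb4 and 2.03 and 1.72 with IgG.

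Cnot10 and Cnot11, which bind together at the other end of the scaffold, showed small changes. Cnot10 (chromosome 9: 114585874 to 114640220) had 22.6 and 21.0 FPKM with Cpeb4 and 16.0 and 16.4 FPKM with IgG, a log2 fold change of 0.40 (standard error 0.12, adjusted p = 0.0113 by limma). Cnot11 (chromosome 1: 39535701 to 39546881) had 12.0 and 11.8 FPKM with Cpeb4 and 8.65 and 8.34 FPKM with IgG, a log2 fold change of 0.44 (standard error 0.12, adjusted p = 0.00714 by limma). Both calls rest on the authors' scaling, since neither gene was called under the other 4, where the log2 fold change lay between -0.085 and 0.15 for Cnot10 and between -0.029 and 0.19 for Cnot11. Both calls were also lost when no low values were filtered out (adjusted p = 0.0774 for Cnot10 and 0.0618 for Cnot11 by limma). Without IgG replicate 1 the limma adjusted p was 0.144 for Cnot10 and 0.0791 for Cnot11, and without IgG replicate 2 it was 0.12 and 0.112. The Cnot10 to Cnot11 ratio was 1.88 and 1.79 with Cpeb4 and 1.86 and 1.97 with IgG, so these ranges overlapped.

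Cnot4 (chromosome 6: 35022065 to 35133754) encodes a ubiquitin ligase that in mammals is not stably held by the complex. It had 13.6 and 16.9 FPKM with Cpeb4 and 7.67 and 8.14 FPKM with IgG. The log2 fold change of Cnot4 was 0.86 (standard error 0.13, adjusted p = 3.14e-05 by limma), at rank 2278, and it was called higher under all 5 scalings. Of the 6 subunits without nuclease activity, Cnot4 and Cnot2 were those called under every scaling.

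**Figure D2:**
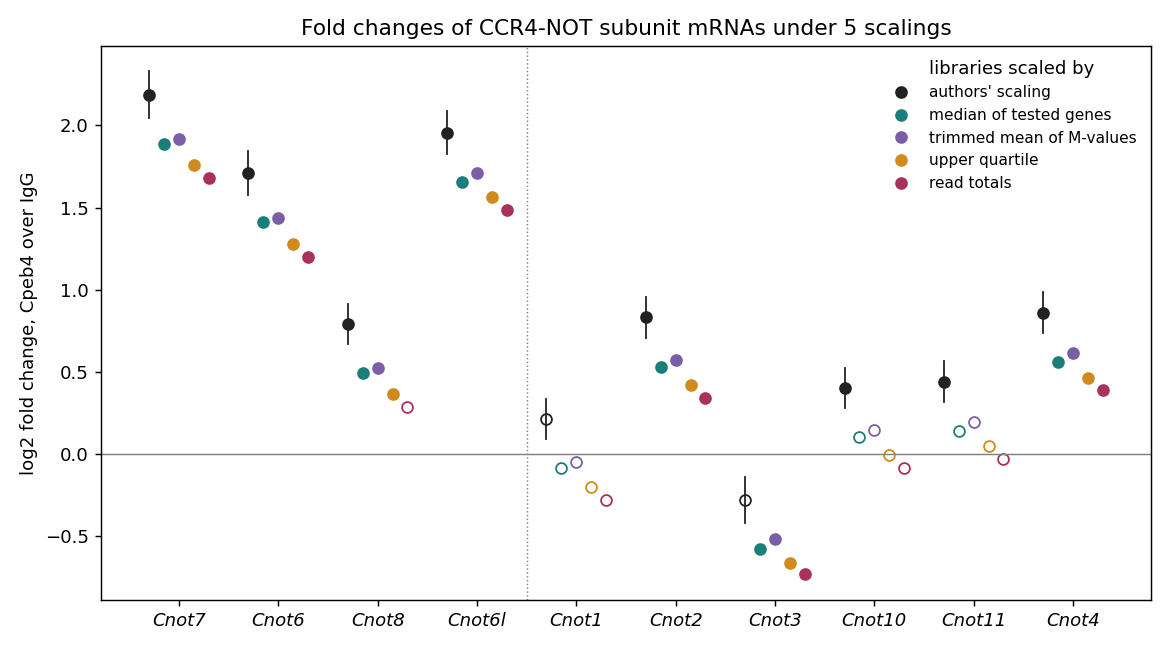
Log2 fold change of each subunit, Cpeb4 over IgG, with the libraries scaled in 5 ways; filled points were called at a limma adjusted p under 0.05, open points were not, and bars are the standard error with the authors' scaling. Cnot7, Cnot6l, Cnot6, Cnot2 and Cnot4 are filled and above 0 under all 5, Cnot3 is below 0 under all 5, and Cnot1 changes sign.

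The nuclease genes as a group were set against the scaffold and other subunits, as a description with no test because the genes were chosen with results of these data known. The mean log2(FPKM + 1) of the 4 nucleases was 6.31 and 6.56 with Cpeb4 and 4.80 and 4.75 with IgG. For the 6 other subunits it was 4.05 and 4.10 with Cpeb4 and 3.62 and 3.70 with IgG. The Cpeb4 minus IgG difference of the nuclease mean was 1.51 in experiment 1 and 1.81 in experiment 2, and that of the other subunits was 0.43 and 0.40. The nuclease change exceeded the other by 1.09 in experiment 1 and 1.41 in experiment 2, 1.25 on average. The separation was not complete, since Cnot8 at 0.79 lay below Cnot2 and Cnot4. Median log2 fold changes were 1.83 for the nucleases and 0.42 for the other subunits, beside 0.19 for all tested genes.

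Each scaling applied the same factor or log2 shift to every gene of a library, so both groups moved by nearly the same amount by construction. The mean log2 fold change of the 6 other subunits was 0.41 with the authors' scaling and -0.066 with libraries scaled to read totals, while that of the nucleases was 1.66 and 1.16. The median log2 fold change of all tested genes was 0.19 with the authors' scaling, -0.037 with trimmed mean of M-values, -0.11 with the median of tested genes, -0.17 with the upper quartile and -0.24 with read totals. The numbers of subunits called higher and lower were 8 and 0 with the authors' scaling, 6 and 1 with the trimmed mean, the median and the upper quartile, and 5 and 1 with read totals. Of all tested genes, 26% were called higher and 24.9% lower with the trimmed mean, 22.9% higher and 30.8% lower with the median, 20.6% higher and 37.2% lower with the upper quartile, and 17.5% higher and 42.4% lower with read totals. Of all calls, 77.0% were higher with the authors' scaling and 29.3% with read totals.

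Within the complex, the make-up of the recovered mRNAs differed between the antibodies. The nucleases held 79.8% and 81.9% of the summed FPKM of the 10 subunits with Cpeb4 and 65.7% and 63.1% with IgG. Cnot7 alone held 33.8% and 37.5% with Cpeb4 and 20.7% and 19.6% with IgG. Cnot8 was the exception among the nucleases, at 15.3% and 11.5% with Cpeb4 and 21.0% and 18.9% with IgG. Cnot1 held 3.96% and 3.56% with Cpeb4 and 7.87% and 9.07% with IgG. Such shares are independent of library scaling but not of each other, because a gain of 1 mRNA lowers the share of the rest.

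**Figure D3:**
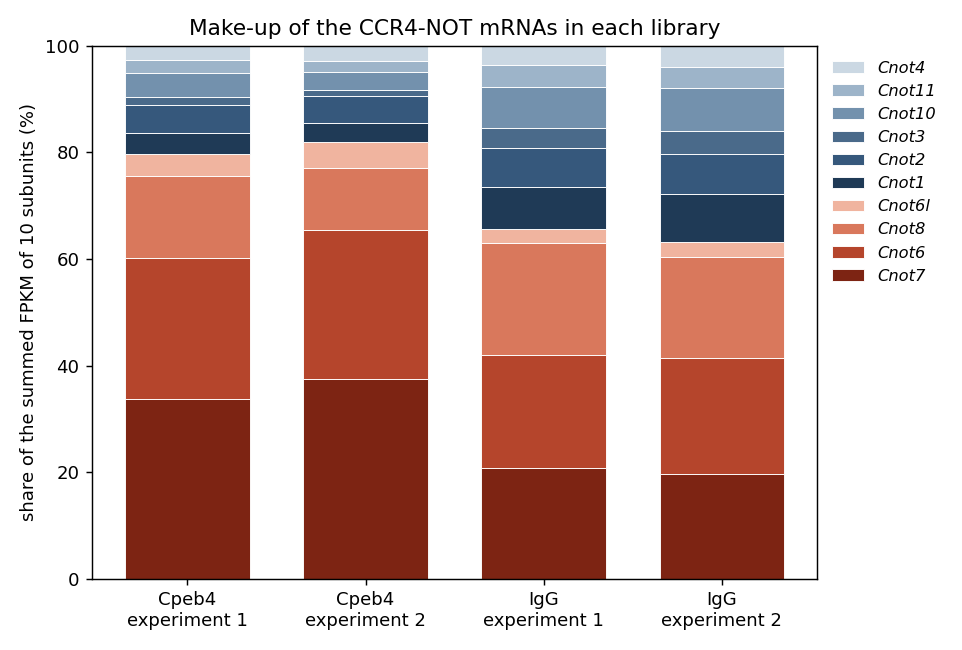
Stacked bars of each subunit's share of the summed FPKM of the 10 CCR4-NOT mRNAs, in percent, for the 2 Cpeb4 libraries and the 2 IgG libraries, with nucleases in red and other subunits in blue. The red part reaches 79.8% and 81.9% with Cpeb4 and 65.7% and 63.1% with IgG, and the Cnot7 part widens most.

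The order of the subunits by level also differed. With Cpeb4, Cnot7 was the most abundant at a mean of 197 FPKM, followed by Cnot6 at 150 ± 24.1 and Cnot8 at 72.6 ± 5.45 (SD, n = 2), and the ranges of these 3 did not overlap. Next came Cnot2, Cnot6l, Cnot10 and Cnot1 at means of 28.5 to 20.5 FPKM, where the range of each overlapped that of its neighbour. Cnot4, Cnot11 and Cnot3 were last, each apart from the next, at 15.3, 11.9 and 6.69 FPKM. With IgG, Cnot6 at 44.9 FPKM was just above Cnot7 at 42.0 and Cnot8 at 41.6, and the ranges of Cnot7 and Cnot8 overlapped. Cnot1, Cnot10 and Cnot2 followed at 17.6, 16.2 and 15.5 FPKM, then Cnot11, Cnot3 and Cnot4 at 8.49, 8.33 and 7.90 with overlapping neighbours, and Cnot6l was last at 5.69 FPKM.

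The subunit mRNAs differ in length and in background level. The gene length implied by the deposited values, which counts the exons used for FPKM, was 8553 bases for Cnot6l, 8389 for Cnot1, 5729 for Cnot6, 4864 for Cnot10 and 4334 for Cnot3. It was 3939 bases for Cnot4, 3882 for Cnot7, 3480 for Cnot11, 2953 for Cnot2 and 2097 for Cnot8, against a median of 3053 over tested genes. The longest pair, Cnot6l and Cnot1, thus had log2 fold changes of 1.96 and 0.21. The IgG level of Cnot6, Cnot7 and Cnot8 exceeded that of 92.7% to 93.5% of tested genes, while Cnot6l exceeded 44.4%. When a loess trend of log2 fold change on length and mean level was removed, 1.49 remained for Cnot7, 1.42 for Cnot6l, 0.96 for Cnot6 and 0.36 for Cnot8. Among the other subunits 0.46 remained for Cnot4, 0.44 for Cnot2, 0.093 for Cnot11, -0.15 for Cnot10, -0.40 for Cnot1 and -0.65 for Cnot3. The trend itself amounted to 0.60 on average for the nucleases and 0.45 for the other subunits.

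**Figure D4:**
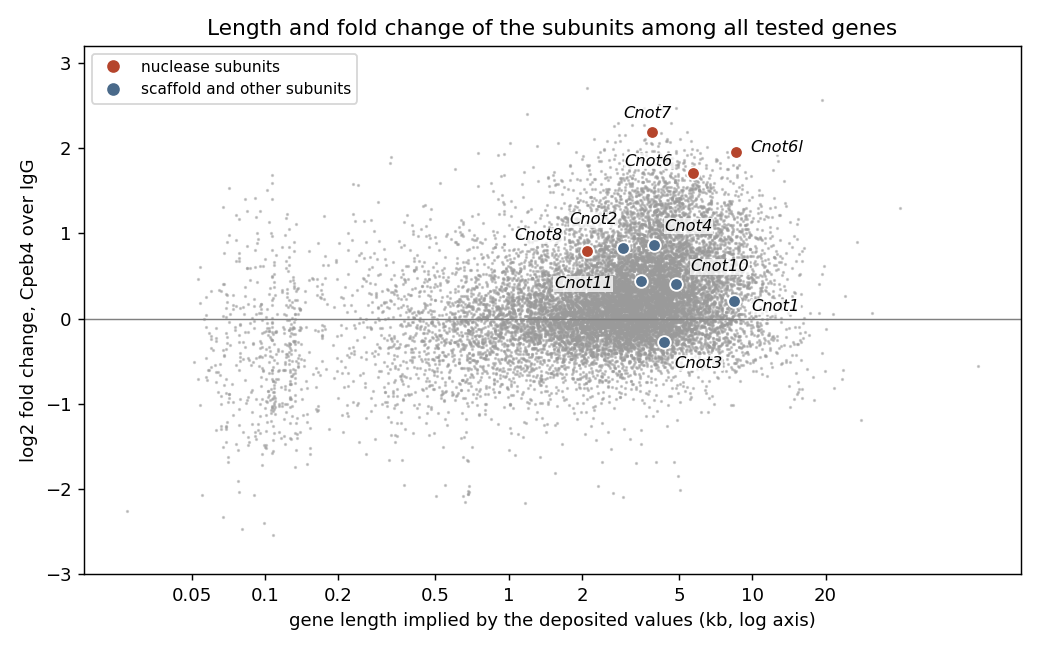
Log2 fold change, Cpeb4 over IgG, against implied gene length in kilobases on a log axis, with tested genes as grey dots, the 4 nucleases in red and the 6 other subunits in blue. Cnot6l and Cnot1 lie at nearly the same length, at 1.96 and 0.21 on the log2 scale, and Cnot7 and Cnot6l lie at the upper edge of the grey cloud.

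For each nuclease the gene nearest in pattern was found among the tested genes, by the distance between log2(FPKM + 1) values in the 4 libraries after subtraction of each gene's mean. Kpna3 was nearest to Cnot7 (distance 0.0397), at 73.3 and 94.8 FPKM with Cpeb4 and 17.8 and 17.2 FPKM with IgG. Lgalsl was nearest to Cnot6l (0.0260), Pno1 to Cnot6 (0.0209) and Ptx3 to Cnot8 (0.0279), with log2 fold changes of 1.97, 1.72 and 0.82. With 4 libraries in all, such likeness describes the size of the difference and little else.

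Cnot9, the subunit that docks recruiting proteins and is outside the 10 genes listed, had 25.1 and 24.3 FPKM with Cpeb4 and 14.9 and 16.2 FPKM with IgG. Its log2 fold change was 0.64 (standard error 0.12, adjusted p = 0.000404 by limma), and it was not called with read totals (limma adjusted p = 0.373). Tnks1bp1, a protein found with the complex, was at 2.43 and 2.03 FPKM with Cpeb4 and 2.26 and 2.80 FPKM with IgG and was not called (log2 fold change -0.13 with a standard error of 0.16, adjusted p = 0.531 by limma). With read totals Tnks1bp1 was called lower, at -0.49 (limma adjusted p = 0.0050).

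The next list held deadenylases outside CCR4-NOT and relatives of the Ccr4-type nucleases. Of 8 tested, 5 were higher, 1 was lower and 2 were not called, beside the 38.8% and 11.6% of all tested genes, with a median log2 fold change of 0.46, and 3 were higher under all 5 scalings, as were 17.3% of all tested genes. Pde12, a deadenylase of mitochondria, had 6.87 and 7.12 FPKM with Cpeb4 and 2.40 and 2.55 FPKM with IgG (log2 fold change 1.20 with a standard error of 0.13, adjusted p = 2.08e-06 by limma). Angel2, a relative of the Ccr4-type nucleases, was higher at 44.0 and 49.4 FPKM with Cpeb4 against 25.9 and 24.3 FPKM with IgG (log2 fold change 0.87). Pan2, the catalytic subunit of the PAN2-PAN3 deadenylase that trims long tails, was lower at 7.67 and 7.23 FPKM with Cpeb4 against 11.3 and 12.4 FPKM with IgG (log2 fold change -0.60 with a standard error of 0.13, adjusted p = 0.000835 by limma). With read totals Parn and Angel1 were also called lower, at -0.40 and -0.58 (limma adjusted p = 0.0093 and 0.000653), beside 42.4% of all tested genes.

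Adaptors that bring CCR4-NOT to mRNAs had a median log2 fold change of 0.85. Of 21 genes in this list 20 were tested, 13 were higher and the other 7 were not called, beside 38.8% of all tested genes called higher. Of these 7, Zfp36, Nanos3, Tnrc6a, Tnrc6b and Tnrc6c were called lower with read totals and the rest were not, beside 42.4% of all tested genes. Under all 5 scalings 11 of the 20 were higher, beside 17.3% of all tested genes. Zfp36l1, which binds AU-rich elements, had 18.3 and 16.1 FPKM with Cpeb4 and 4.64 and 5.13 FPKM with IgG (log2 fold change 1.63 with a standard error of 0.13, adjusted p = 1e-07 by limma). Rc3h1 (Roquin), which binds stem-loops in target mRNAs, had 10.3 and 13.3 FPKM with Cpeb4 and 3.49 and 3.80 FPKM with IgG (log2 fold change 1.45 with a standard error of 0.13, adjusted p = 2.81e-07 by limma).

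Of 11 factors of decapping and 5′-to-3′ decay, the steps after deadenylation, 5 were higher, 1 was lower and 5 were not called, with a median of 0.28. These counts are near the 38.8% called higher and 11.6% called lower among all tested genes, and 2 of the 11 were higher under all 5 scalings, near the 17.3% of all tested genes. The helicase Ddx6, which binds the centre of Cnot1, had 51.8 and 58.1 FPKM with Cpeb4 and 15.7 and 14.0 FPKM with IgG. Its log2 fold change of 1.82 (SE 0.13) lay between those of Cnot6 and Cnot6l. Lsm14a, a Ddx6 partner, was higher at a log2 fold change of 1.12, and the decapping scaffold Edc4 was lower at -0.39 (standard error 0.12, adjusted p = 0.0159 by limma).

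Among 5 genes of the cytoplasmic poly(A)-binding proteins and their interactors, 4 were higher and Pabpc4 was not called, with a median of 0.62, beside 38.8% of all tested genes called higher. Under all 5 scalings 2 of the 5 were higher, beside 17.3% of all tested genes. Paip2, an inhibitor of poly(A)-binding protein, had 241 and 279 FPKM with Cpeb4 and 93.1 and 90.5 FPKM with IgG (log2 fold change 1.49 with a standard error of 0.14, adjusted p = 3.91e-07 by limma). Paip1, which stimulates translation, had 12.2 and 21.4 FPKM with Cpeb4 and 8.01 and 7.38 FPKM with IgG (log2 fold change 0.99 with a standard error of 0.16). Pabpc1, the main poly(A)-binding protein of the cytoplasm, was at 121 and 126 FPKM with Cpeb4 and 75.8 and 84.6 FPKM with IgG (log2 fold change 0.62), and Paip2b at a log2 fold change of 0.44. With read totals Pabpc1 and Paip2b were not called (limma adjusted p = 0.538 and 0.706). Pabpc4 had 5.11 and 4.68 FPKM with Cpeb4 and 4.78 and 4.83 FPKM with IgG (log2 fold change 0.022 with a standard error of 0.13, adjusted p = 0.907 by limma). With read totals Pabpc4 was called lower, at -0.41 (limma adjusted p = 0.0114).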

How the data were processed

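RNA from Cpeb4 and IgG immunoprecipitates of V-SVZ lysates was analysed in 4 libraries. Per the labels' protocols, a MAGNA RIP kit gave the RNA, SMART-Seq v4, which primes on poly(A) tails and keeps no strand, gave the cDNA, and Nextera XT gave the libraries. Per the submitters' processing notes, the authors used STAR 2.6.0c and build mm10, HTSeq 0.6.1p2 and DESeq2 1.26.0, besides Trim Galore 0.5.0 and FastQC 0.11.5, with settings not given in the sources used here. Per the file headers, the deposited values are FPKM per library and the authors' own comparison, which holds a mean normalized signal, a log2 fold change and standard error, a score for the test, and p-values before and after adjustment. Joining FPKM to that mean gave whole reads within 0.01 read for 100% of values in 30361 genes, from which depth and implied length were taken.

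Genes that reached an FPKM of 1 in 2 or more libraries entered limma 3.58.1 (R 4.3.3) on log2(FPKM + 1), with a trended prior, antibody as effect and experiment as block. The block was used because experiments are numbered across antibodies in the labels and the name of the table gives a batch. Libraries of the same number deviated from their group means with a correlation of 0.002 across genes. Counting noise was exceeded, with a chi-square over its degrees of freedom of 23.0 between the Cpeb4 libraries and 4.97 between the IgG libraries, so neither pair was the same library deposited 2 times. Reads carry no molecular identifiers. Positions are RefSeq spans on GRCm38. The code was tested on simulated data of 15745 genes, with 200 of them changed by a log2 value of 1 or of 2. At each size 100% of the changed genes were recovered, and 9.09% of the calls were genes with no change. That share is above the one the adjusted p threshold is meant to allow.

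The subunits and the gene lists were chosen with earlier results of these data known. Named from the lists were the 2 called genes with the largest positive and negative log2 fold changes, and every gene of lists under 6, while cell type markers are given as sums and counts. Also named were genes of the deadenylase and adaptor lists that were called lower with read totals but not with the authors' scaling. For each nuclease the nearest gene was sought without predicted symbols. The table held 0 other columns of per-sample values. Alternatives were 4 scalings, 2 filters, a pseudocount of 0.1, no block, each library left out, limma-voom on reads, each experiment alone, the authors' table and a loess trend (span 0.5). Without the block each left-out fit kept 1 residual degree of freedom, and the lone library was assumed to vary like the pair.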

Additional observations from a re-analysis of the deposited data

How the results depend on the processing

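The limits are 2 libraries per antibody, 1 residual degree of freedom per gene before the prior, and a scaling that decides the calls of small changes. With the authors' scaling the prior added 14.6 degrees of freedom (median over genes), so the spread behind a p-value came mostly from other genes. Each scaling was fitted with its own prior, so adjusted p-values cannot be set side by side between scalings. The log2 fold change of Cnot7 was 2.19 with the authors' scaling (limma adjusted p = 4.4e-08) and 1.68 with read totals (limma adjusted p = 3.45e-27). Cnot6, Cnot6l, Cnot7, Cnot2 and Cnot4 were called higher in all 13 tested alternatives and in the authors' table. Cnot8 was lost with read totals alone among those alternatives. The nuclease minus other difference was 1.25, and 1.09 to 1.41 over the 17 alternatives, of which the scalings, the filters and the fit without the block can hardly move a difference between genes of the same libraries.

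Without the replicate block, 6007 genes were higher and 1714 lower, with 8 subunits higher, and no subunit's call changed. Higher and lower genes numbered 2759 and 6670 with read totals, 3240 and 5856 with the upper quartile and 3607 and 4857 with the median of tested genes. Lower genes were 3918 with the trimmed mean of M-values, higher and lower ones 3915 and 875 with no filter, and lower ones 1119 in the authors' deposited table. With 1 library left out, 3977 (without IgG replicate 2) to 6534 genes were higher and 867 (without IgG replicate 2) to 2497 lower, with 942 lower without IgG replicate 1. Higher subunits were 5 with read totals. Subunits called lower were 1 (Cnot3) with each of the other 4 scalings and with limma-voom, and 0 to 1 with 1 library left out.

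The nuclease mean was 1.36 with the median, 1.16 with read totals, 1.40 with the trimmed mean, 1.24 with the upper quartile and 1.06 with the loess trend removed. The mean of the other subunits was 0.11 with the median, 0.44 with a pseudocount of 0.1, -0.066 with read totals, 0.16 with the trimmed mean, 0.011 with the upper quartile and -0.036 with the loess trend removed, and 0.37 to 0.45 with 1 library left out. Signs turned for Cnot1 (-0.086 median, -0.28 read totals, -0.046 trimmed mean, -0.20 upper quartile, -0.40 loess), Cnot10 (-0.085 read totals, -0.0061 upper quartile, -0.15 loess) and Cnot11 (-0.029 read totals). The loess values are differences from a trend on length and level, so their sign does not place Cpeb4 below IgG. The cause of the changes of sign and size was not tested.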
